A study of Mus musculus with 3 samples.

Results

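The cytoplasmic actins Actb and Actg1 and 8 genes for actin regulators were followed in single microglia of control, hCD33M and hCD33m mice, by library, by cell class and by the number of transcripts caught per cell. The 10 genes were taken by name from the count matrices, in which 15635 genes were found in at least 1 library, and all 10 were present in every library. They were read in cells with more than 200 and at most 8000 genes and at most 10% mitochondrial transcripts, which left 17669 of 18340 barcodes. Their choice by name used no measured value, although earlier results of these data were known.

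The control mice were wild type by their labels, and the other groups carried a human CD33 transgene, either the long isoform (hCD33M) or the short isoform (hCD33m). In the study's account the transgenes sat at Rosa26 behind a floxed stop cassette and were switched on by Cre under the Cx3cr1 promoter, and the hCD33m line came from a single embryonic stem cell clone. Whether the control mice of the sequencing experiment carried Cre is not given in the sources used here. All mice were 8 weeks old and on a C57BL/6 background, and each library pooled 2 mice, so every genotype is 1 sample, the spread between mice could not be measured and no test across samples was made. The labels give male for control and hCD33M and female for hCD33m, whereas the study's text gives male for all. By the labels sex and hCD33m cannot be told apart for any of the 10 genes, of which only Tmsb4x lies on chromosome X. Brains were kept ice-cold with actinomycin D, triptolide and anisomycin, which block transcription or translation, before CD11b+CD45lowCx3cr1+ cells were sorted and their 3′ transcript ends counted by unique molecular identifiers (UMIs). Counts are for mouse genes, so the human transgene itself was not measured.

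Actin monomers join into filaments that push the cell membrane outward, and microglia depend on this turnover to extend processes, crawl and engulf particles. Profilin (Pfn1) loads actin monomers with ATP and feeds them to growing ends, thymosin beta 4 (Tmsb4x) holds monomers in reserve, and cofilin (Cfl1) severs old filaments. The Arp2/3 complex, to which Arpc1b, Arpc2 and Arpc3 belong, starts new branches on existing filaments, coronin 1A (Coro1a) binds filaments and tunes Arp2/3, and Capg caps filament ends. Many actin genes respond to serum response factor (SRF), which binds the CArG box.

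Actg1 was the only one of the 9 genes with a RefSeq promoter window (250 bases before to 50 after the start site) whose window held a CArG box on either strand. Actb was the gene without a window and was not searched, so the actins cannot be compared in this respect. The Actg1 window is shown because Actg1 also had the largest ratio between hCD33M and control microglia among the 10 genes. The box, in capitals, begins 90 bases before the start site at chr11:120348446-120348745, minus strand, on GRCm38.p6.
Actg1 promoter: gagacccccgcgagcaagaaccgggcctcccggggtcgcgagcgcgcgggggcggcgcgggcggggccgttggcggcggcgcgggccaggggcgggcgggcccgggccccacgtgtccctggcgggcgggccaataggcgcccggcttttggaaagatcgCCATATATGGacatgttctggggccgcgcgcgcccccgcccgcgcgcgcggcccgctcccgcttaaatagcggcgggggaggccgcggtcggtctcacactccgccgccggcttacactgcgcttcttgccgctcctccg
Across all promoter windows of the same length 535 of 32851 (1.63%) held a CArG box. A match describes letters in a window and says nothing of binding in these cells. On the same mouse assembly (mm10), Actg1 lies on chromosome 11 from 120345690 to 120348542 and Actb on chromosome 5 from 142903115 to 142906754, both on the minus strand. Of 451 windows of 50 bases in the last 500 bases of Actb transcripts, 42 were shared with a transcript of another gene, Lrrc58, so that some Actb reads may have been hard to place, whereas the other 9 genes shared none.

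Clustering, from which these genes and the other actin pathway genes were left out, gave 13 clusters. Of these, 8 were microglia-like and held 13365 cells (4312 control, 4179 hCD33M and 4874 hCD33m), with all 9 microglia markers over 20 CPM, among them P2ry12, Tmem119 and Sall1. Here CPM is the number of UMIs of a gene per 1000000 UMIs, both summed over all cells of a class in a library. UMI sums over microglia-like cells ran from 28122069 in control to 34376071 in hCD33m. Border associated macrophage-like cells, with Mrc1 and Ms4a7, numbered 218, and monocyte-like cells, with Ly6c2, Chil3 and Plac8, numbered 84. A further 3486 cells with few UMIs and 516 cells led by hemoglobin genes, Cst7 and Vcam1 stayed unnamed. Pairs of libraries had 4 to 12 cell barcodes in common. In microglia-like cells no monocyte marker and no border associated macrophage marker reached 20 CPM in any library. Some markers listed for other types did over the libraries together. They were Ighm (288 CPM) and Cd79b (40.7) for B cells, Mag (35.1) and Mbp (24.5) for oligodendrocytes and Pecam1 (27.5) for endothelial cells.

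The 10 genes together made up 2.12% of the UMIs of control microglia-like cells, 1.99% of hCD33M and 2.08% of hCD33m. Tmsb4x stood highest, at 10761 CPM in control, 10459 in hCD33M and 10499 in hCD33m, and Actb came next. Because UMIs count 3′ ends, these levels need no scaling by gene length. Below them lay Pfn1, Actg1, Cfl1, Arpc2, Coro1a, Arpc1b and Arpc3 between 249 and 858 CPM, and Capg was scarce, at 20.6 to 31.2 CPM. Among the middle genes the order depended on the library, since Cfl1 stood below Actg1 in control and above it in both transgenic libraries.

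**Figure D1:**
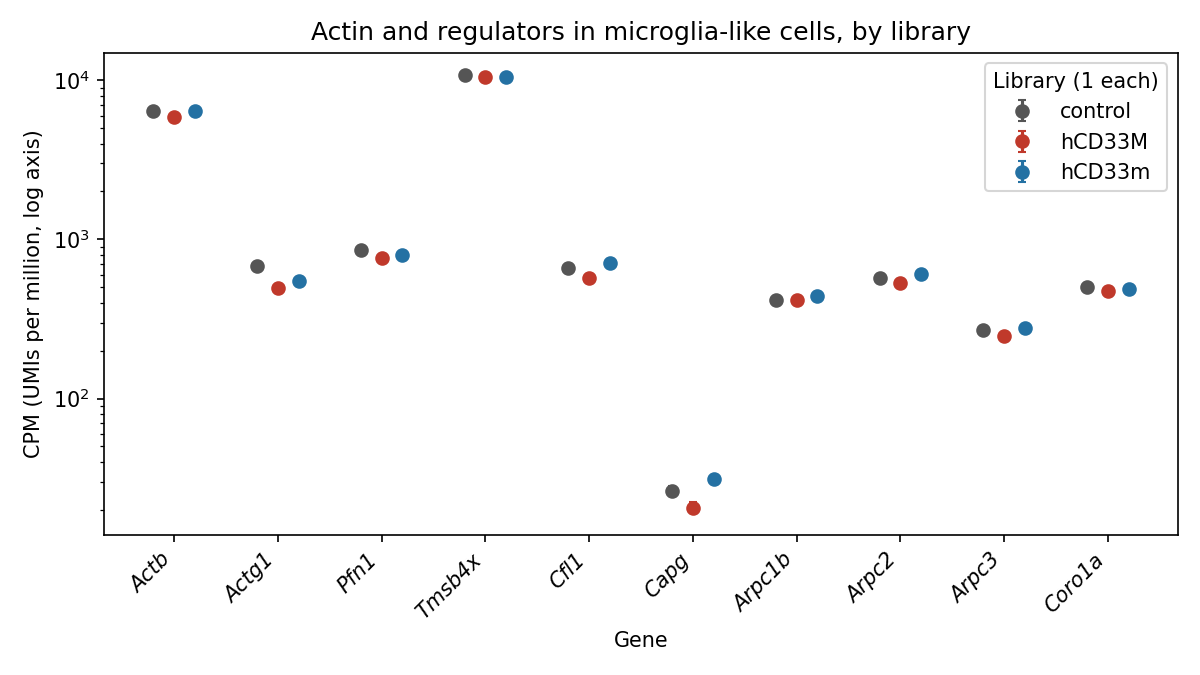
Level of each gene in microglia-like cells as CPM on a log axis, 1 point per library, with exact 95% Poisson intervals for counting error that are mostly smaller than the points. Tmsb4x lies at 10459 CPM or more, Capg at 31.2 CPM or less, and the libraries differ most visibly for Actg1, Cfl1 and Capg.

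The levels of the actins themselves were compared first. The Actb level in control was 6436 CPM (6407 to 6466), that in hCD33M 5895 CPM (5867 to 5923) and that in hCD33m 6406 CPM (6379 to 6433). Control and hCD33m thus overlapped in counting error and hCD33M was lower by 0.13 on the log2 scale than control. The Actg1 level in control was 681 CPM (671 to 690), that in hCD33M 496 CPM (488 to 504) and that in hCD33m 551 CPM (544 to 559). Control was the highest library for Actg1, with a log2 ratio of -0.46 for hCD33M against control (-0.49 to -0.43) and -0.30 for hCD33m against control (-0.33 to -0.27). The UMIs of Actb per UMI of Actg1 were accordingly 9.46 in control, 11.9 in hCD33M and 11.6 in hCD33m. All intervals here and below are at 95% and cover counting error only, not the spread between mice or isolations.

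Among the genes that act on monomers and filament ends, Cfl1 was at 659 CPM in control, 571 in hCD33M and 711 in hCD33m. It was lowest in hCD33M and highest in hCD33m, with a log2 ratio of 0.32 between the transgenic libraries (0.29 to 0.35). Pfn1 was at 858 CPM in control, 763 in hCD33M and 793 in hCD33m, so that control was highest. Tmsb4x moved least, with log2 ratios of -0.04 for both transgenic libraries against control and 0.01 between them. The Capg level in control was 26.3 CPM (24.5 to 28.3), that in hCD33M 20.6 CPM (19.0 to 22.4) and that in hCD33m 31.2 CPM (29.4 to 33.1), intervals that did not overlap.

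Among the genes for branching, Arpc1b was at 417 CPM in control, 413 in hCD33M and 443 in hCD33m. Arpc2 was at 568 CPM in control, 535 in hCD33M and 602 in hCD33m, and Arpc3 at 270.4 CPM in control, 249 in hCD33M and 278 in hCD33m. The Arp2/3 genes thus stood highest in hCD33m by at most 0.17 on the log2 scale. Coro1a was at 499 CPM in control, 477 in hCD33M and 488 in hCD33m, a narrower range than that of any of these Arp2/3 genes.

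Since no test was possible, a difference was called by size, at 1.5-fold or more with a counting interval that left out no difference, and only for genes that reached 20 CPM in either library. Against control, 0 of the 10 genes were called in hCD33m, where 1.28% of 6800 genes were called, and their ratios were 5 above and 5 below 0 with a median of 0.02. Likewise 0 of 10 were called in hCD33M against control, where 0.928% of 6790 genes were called, but all 10 log2 ratios were below 0 (Arpc1b changed sign in 1 of 17 other settings), with a median of -0.12 against 0.01 over all genes compared. In hCD33m against hCD33M all 10 were above 0 (Tmsb4x changed sign in 2 and Coro1a in 1 of 17 other settings), with a median of 0.14 against 0.00 over all genes compared, and 1, Capg, was called where 0.635% of 6773 genes were. Some of these 17 settings changed only the call limits and could not change a sign. The interval of Arpc1b in hCD33M against control held 0 (-0.049 to 0.025). That of Tmsb4x in hCD33m against hCD33M held 0 as well (-0.0016 to 0.012), so the sign of these 2 ratios is not resolved. The comparisons share libraries, so the sign in one is tied to that in another. Capg passed by little, at 1.51-fold, and was no longer called in 8 of the 16 other planned settings, among them cells thinned to 1600 UMIs, at a log2 ratio of 0.48, as the closing section lists.

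**Figure D2:**
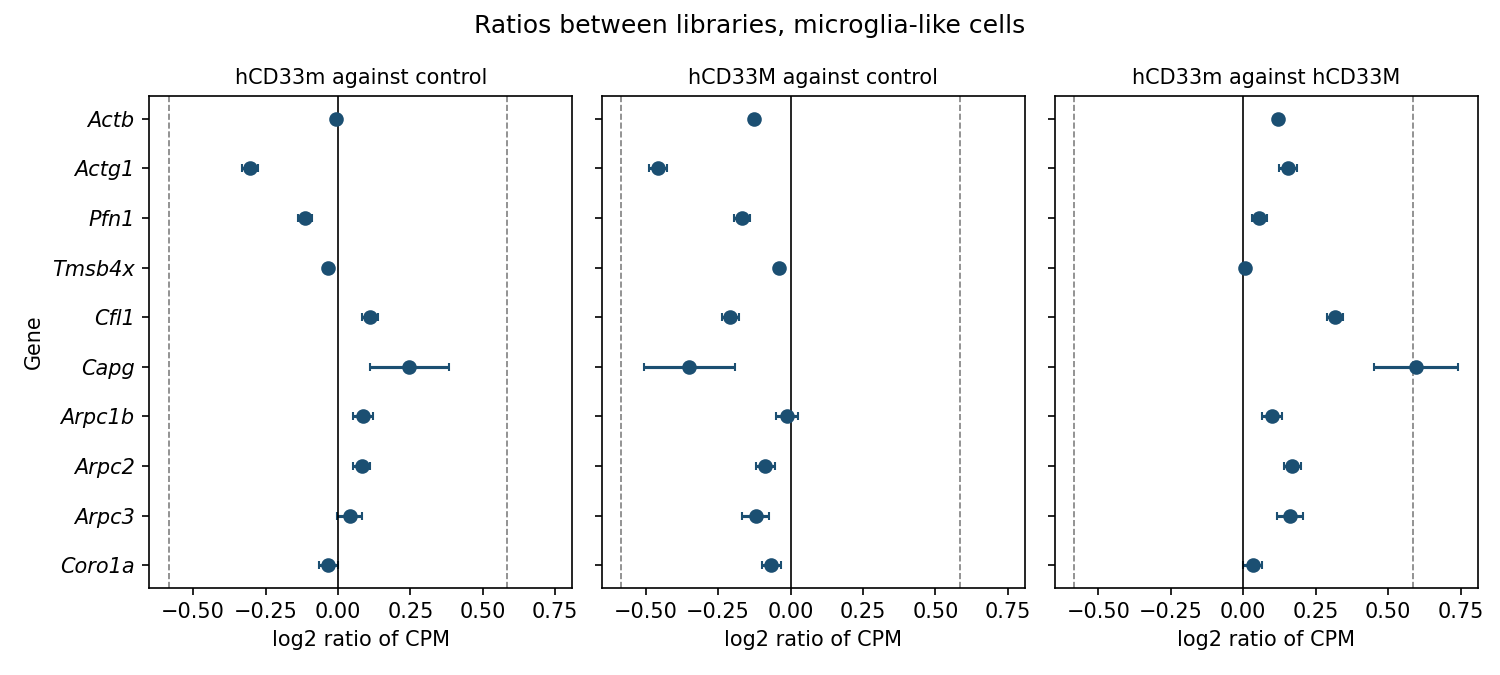
Log2 ratio of CPM in microglia-like cells for each pair of libraries, 1 point per gene, with exact conditional binomial 95% intervals, a solid line at no difference and dashed lines at 1.5-fold. All 10 points lie below 0 for hCD33M against control and above 0 for hCD33m against hCD33M, with Arpc1b, Tmsb4x and Coro1a changing sign in some other settings, and Capg in the last panel is the only point past a dashed line.

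The order of the libraries was then followed within each of the 8 microglia-like clusters. Actg1 was lower in hCD33M than in control in 8 of 8 clusters and lower in hCD33m than in control in 6 of 8. Cfl1 was lower in hCD33M than in control in 8 of 8 and higher in hCD33m than in control in 8 of 8. Pfn1 was lower in hCD33M than in control in 8 of 8, and Actb in 7 of 8. Arpc1b was higher in hCD33m than in control in 8 of 8 clusters, while its order between hCD33M and control was split 4 to 4. For Tmsb4x the order of the transgenic libraries was 3 to 5, beside a ratio near 0 over all clusters. All of these are counts of signs, and in some clusters the counting intervals of the libraries overlapped. For Arpc1b the intervals of hCD33m and control stood apart only in cluster 0, at 447.4 to 479.7 against 414.8 to 446.8 CPM. In cluster 7 those of Cfl1 in hCD33M (609 to 698 CPM) and control (648 to 716 CPM) overlapped. Clusters of a library share its preparation and are not replicates.

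The clusters differed from each other more than the libraries did. In cluster 3, whose leading genes included Malat1, a nuclear noncoding RNA, and whose cells had a median of 1884 UMIs, all 10 genes were at their lowest, with Actb at 1880 CPM and Tmsb4x at 2278 CPM over the libraries together. Cluster 3 held 10.8% of kept control cells, 11.65% of hCD33M and 4.65% of hCD33m. In the other 7 clusters Actb stayed between 6042 and 7158 CPM, a 1.19-fold range, and Actg1 varied by 1.82-fold. Cluster 11, led by Mmp12 and the chemokines Ccl4 and Ccl3, was highest for 8 of the 10 genes, with Actg1 at 982 CPM and Cfl1 at 870.4 CPM. It held 36 control, 20 hCD33M and 97 hCD33m cells.

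Capg varied most between clusters, by 5.67-fold without cluster 3. It was at 115 CPM in cluster 11, 65.1 in cluster 7, which was led by Tcim, Lpl and Emp3 and had Capg among its 10 leading genes, and 20.3 in cluster 0. In cluster 7, Capg was at 67.8 CPM in control (57.6 to 79.4), 55.9 in hCD33M (43.7 to 70.4) and 67.6 in hCD33m (57.3 to 79.3), and these intervals overlapped. In cluster 0 it was at 18.8 CPM in control, 15.6 in hCD33M (12.6 to 19.0) and 25.9 in hCD33m (22.3 to 30.0), so that hCD33m lay above hCD33M. Cluster 7 held 8.08% of kept cells in control, 4.68% in hCD33M and 7.22% in hCD33m. Cluster 11, where Capg was highest, held 0.611%, 0.350% and 1.60% in that order. The part of the shares of either cluster in the Capg ratio was not tested.

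**Figure D3:**
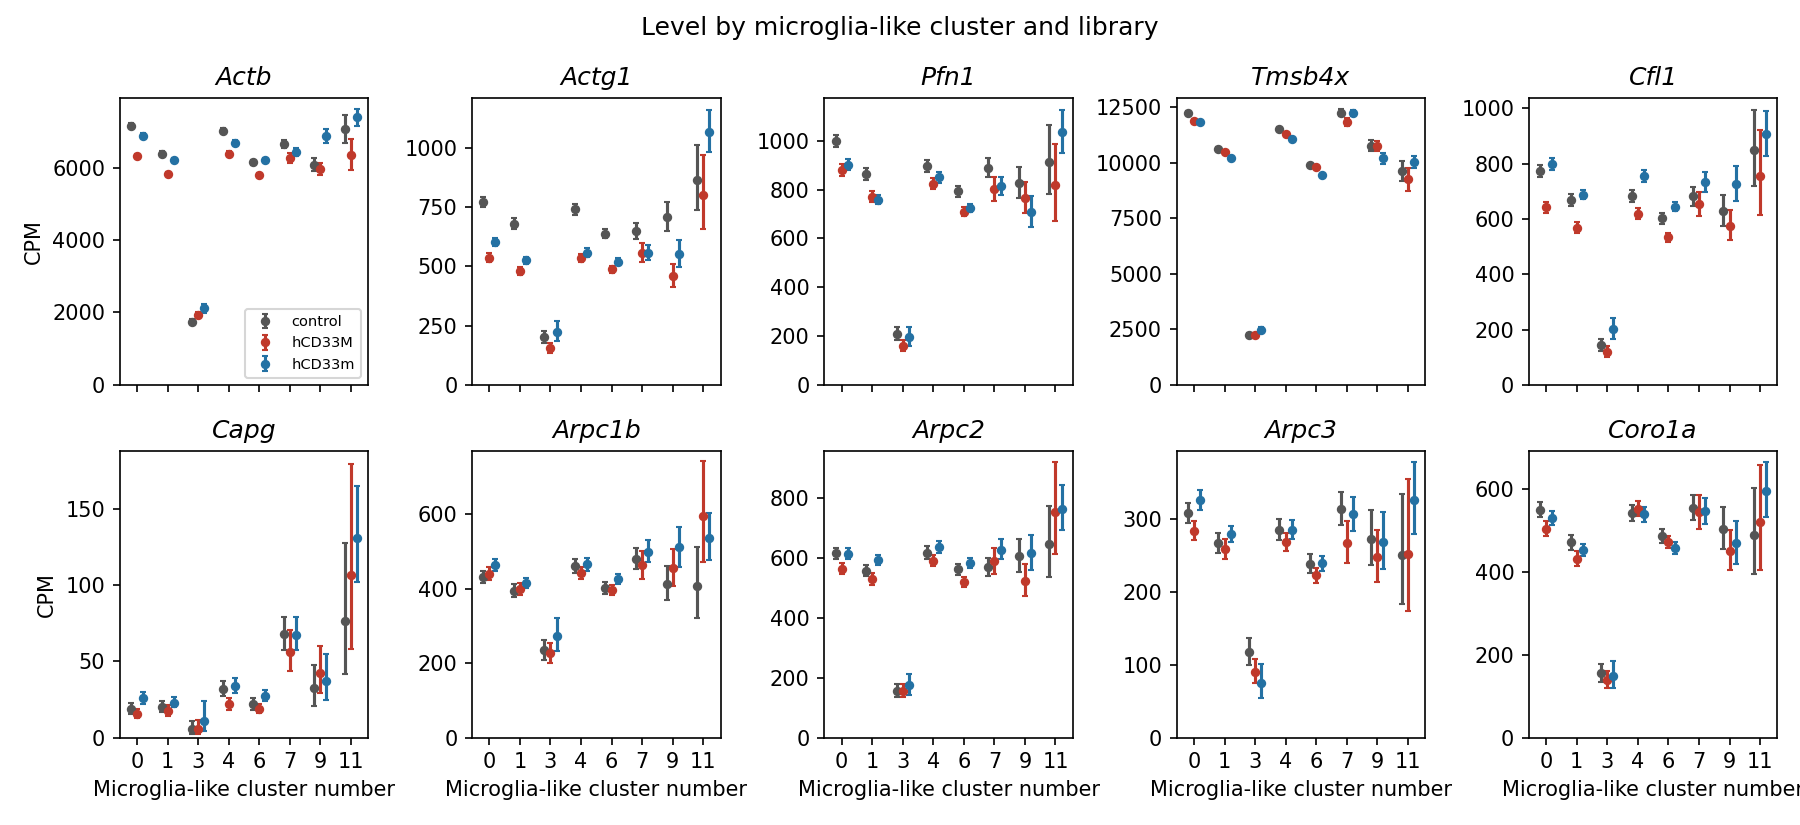
CPM of each gene in the 8 microglia-like clusters by library, with exact 95% Poisson intervals and axes from 0. Cluster 3 is lowest in every panel, cluster 11 is highest in most, and Capg stands out in clusters 7 and 11.

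The depth band of a cell, its total UMIs, went with the share of those UMIs that came from actin genes. Over the libraries together, the 10 genes made up 0.712% of UMIs in the 1153 microglia-like cells with 1000 to under 2000 UMIs, 1.62% in the 2634 cells with 2000 to under 4000, 2.17% in the 6569 cells with 4000 to under 8000 and 2.12% in the 2914 cells with at least 8000. The level thus climbed up to about 4000 UMIs and was flat beyond. Actb was at 2446, 4982, 6418 and 6510.1 CPM across these bands. Arpc1b was at 259.7, 382, 433 and 435 CPM, a much shallower course.

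Between the highest and the 1000 to 2000 band 10 of 10 genes were higher by 1.5-fold or more, where 34.4% of 7008 genes were called higher. The median log2 ratio was 1.515 for the 10 genes and 0.25 for all genes compared. Cfl1 had the largest ratio, 3.58-fold (a log2 ratio of 1.84), followed by Tmsb4x at 3.32-fold and Pfn1 at 3.29-fold. Arpc1b had the smallest, 1.68-fold (log2 0.74, 0.61 to 0.88), and Arpc3 came next at 2.08-fold, whereas Arpc2 of the same complex was at 2.81-fold. All 10 passed in each library alone, with medians of 1.43 in control, 1.83 in hCD33M and 1.30 in hCD33m on the log2 scale.

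Other measures moved with the bands. Mitochondrial transcripts made up 3.33% of UMIs in the 1000 to 2000 band and 1.42% in the highest, and Malat1 was at 110100 CPM in the former and 42240 in the latter. Cluster 3 supplied 76.2% of the cells of the 1000 to 2000 band and none of the highest. When the totals left out mitochondrial genes and the noncoding RNAs Malat1, Gm42418 and Gm26917, the folds were 1.52 for Arpc1b to 3.25 for Cfl1, so all 10 stayed above 1.5-fold over the libraries together, although Arpc1b alone was at 1.48-fold in hCD33M and 1.39-fold in hCD33m. What else these low-UMI cells have in common was not tested, and in such sums damaged cells and cells with less actin mRNA cannot be told apart.

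By the median log2 ratio of the 10 genes, Capg included, hCD33M was furthest from the other libraries in the 1000 to 2000 band, at -0.42 against control. By the same measure hCD33m was furthest from control in the 2000 to 4000 band, at 0.25. Over all genes compared, these medians were -0.07 and 0.08. In the 1000 to 2000 band Actb was at 2404 CPM in control, 2000 in hCD33M and 3269 in hCD33m, and Tmsb4x at 3288, 2737 and 4046 CPM in that order. Against control, 0 genes were called in hCD33m, where 7.43% of genes were called, and 2, Actg1 at 130 against 234 CPM and Pfn1 at 197 against 296 CPM, were lower in hCD33M, where 4.55% were called lower. Against hCD33M, 3 were higher in hCD33m, where 7.38% of genes were called higher, namely Actb at 1.64-fold, Actg1 at 2.07-fold and Cfl1 at 1.88-fold. Capg was under 20 CPM in all libraries of the 1000 to 2000 band, with 3 to 10 UMIs each, so it could not be called there, although its ratio entered the median. Cluster 3 made up 74.8% of these cells in control, 84.8% in hCD33M and 63.4% in hCD33m, moving in the opposite direction to the Actb level.

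In cells with at least 8000 UMIs, where cluster 3 was absent, Actb was at 6801 CPM in control, 6193 in hCD33M and 6580 in hCD33m, and Actg1 at 701, 516 and 555 CPM in that order. Against control the log2 ratio of Actg1 in these cells was -0.44 in hCD33M and -0.34 in hCD33m, near the ratios over all microglia-like cells. In cells with at least 8000 UMIs the log2 ratio of hCD33m against hCD33M was 0.28 for Cfl1 and 0.62 (0.42 to 0.82) for Capg, and Capg alone was called, where 0.453% of genes were called higher. Capg alone was called also in the 4000 to 8000 band, at 0.60 (0.36 to 0.84), where 0.549% were called higher. In cells with 2000 to under 4000 UMIs, by contrast, Actg1 was at 486 CPM in control (459 to 513), 403 in hCD33M and 498 in hCD33m (473 to 523), so that hCD33m lay below control in the deeper 2 of 4 bands and hCD33M in all 4. In that band Cfl1 alone was called in hCD33m against hCD33M, at 591 against 394 CPM (1.502-fold), where 2.16% of genes were called higher, and the interval of Capg held 0. In each of the 4 bands from 1000 UMIs up, Actb, Actg1, Pfn1, Cfl1, Capg and Arpc3 were lower in hCD33M than in control. The intervals of Pfn1 in the 2000 to 4000 band and of Arpc3 and Capg in the 1000 to 2000 and 2000 to 4000 bands held 0.

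**Figure D4:**
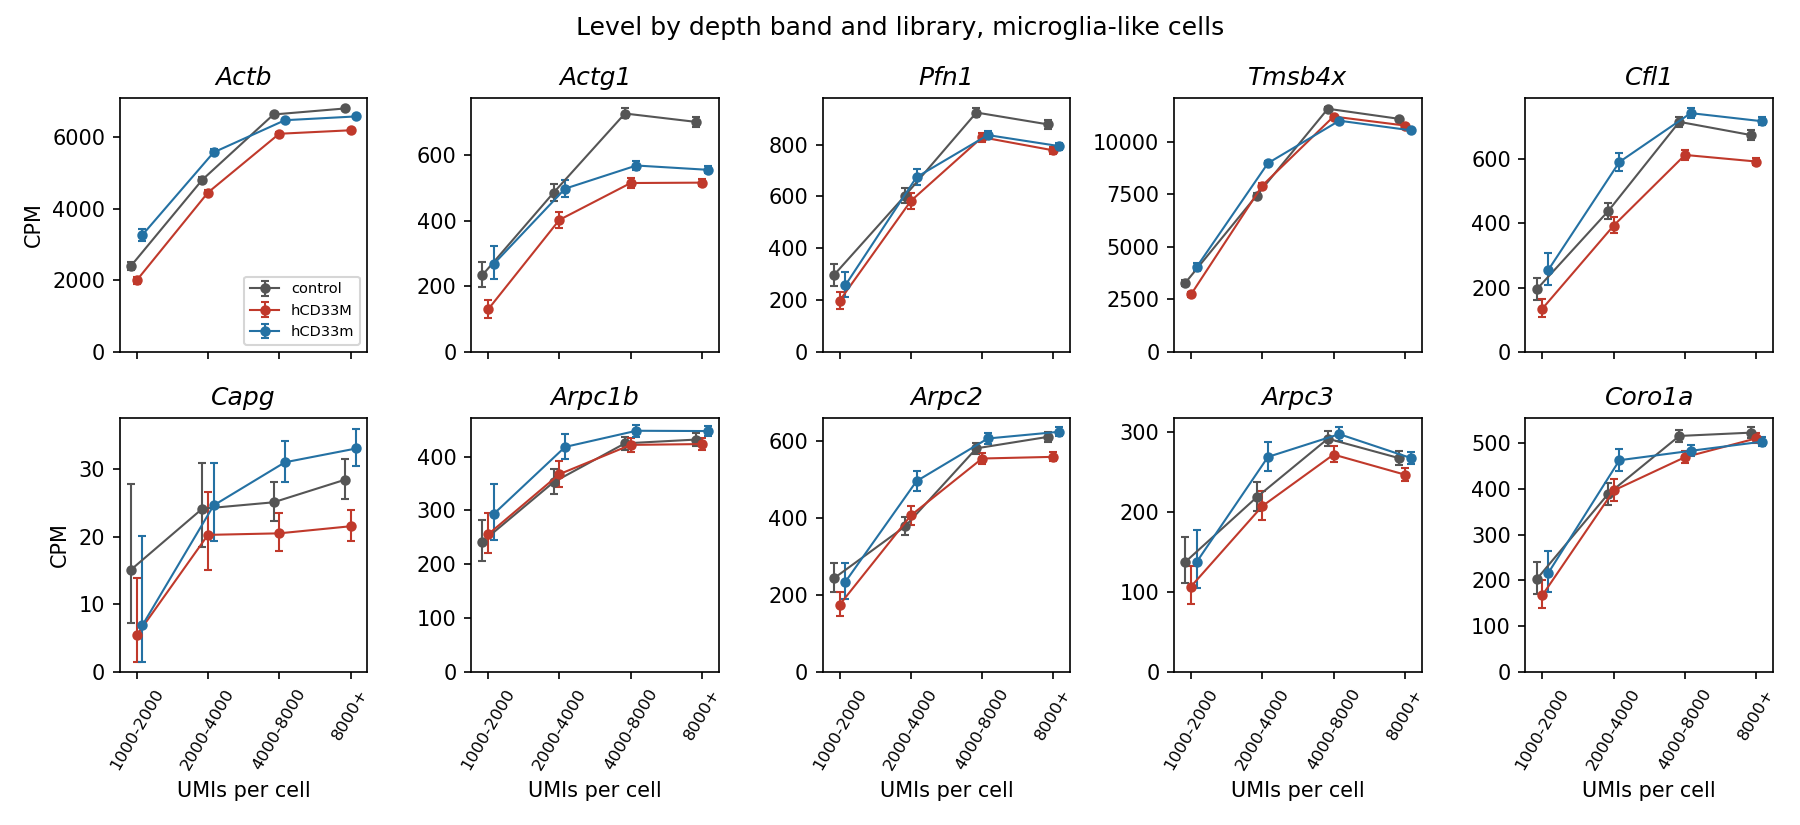
CPM of each gene by depth band in microglia-like cells, 1 line per library, with exact 95% Poisson intervals and axes from 0. Levels climb from the 1000 to 2000 band to the 4000 to 8000 band and then flatten, Arpc1b climbs least, and the control line of Actg1 lies above the others in the deeper bands.

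Individual cells were compared after thinning each to 1600 UMIs, which left out 649 of the microglia-like cells (229 control, 270 hCD33M and 150 hCD33m). Actb was then detected in 99.1% of cells (98.8% before thinning) and Tmsb4x in 99.4% (99.5% before). Actg1 was detected in 60.4% of control cells (58.9% to 61.9%), 49.4% of hCD33M cells (47.8% to 51.0%) and 55.5% of hCD33m cells (54.1% to 56.9%), and without thinning in 83.4%, 77.2% and 85.6%. The order of the thinned shares followed the CPM, with control highest. Capg was detected in 3.99% of control cells (3.41% to 4.64%), 3.02% of hCD33M cells (2.51% to 3.60%) and 4.36% of hCD33m cells (3.80% to 4.98%), and without thinning in 13.03%, 10.9% and 16.1%. Capg was therefore met in few cells at this depth, and free RNA from other cells can add to such shares. No class in these data is known to lack Capg, so no background share can be given, and in border associated macrophage-like cells it was detected in 2.37% (0.774% to 5.44%).

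The median thinned cell held 9 Actb UMIs, with the middle range of cells (quartiles) from 6 to 12, and 16 Tmsb4x UMIs, with quartiles of 12 and 21. The variance was 2.33 times the mean for Actb and 3.12 times for Tmsb4x, against 1.047 to 1.195 for the other 8 genes, where counting alone gives a ratio near 1. At the same relative spread this ratio rises with the mean, which was 9.41 UMIs for Actb, 16.03 for Tmsb4x and at most 1.22 for the others. It therefore does not show that Actb and Tmsb4x vary more between cells than the other genes. Actb and Tmsb4x also went together, with a Pearson r of log UMIs over cells of 0.62 in control, 0.60 in hCD33M and 0.43 in hCD33m, the highest of the 45 gene pairs in every library. The r of Actb and Actg1 was 0.24, 0.19 and 0.12 in the same order. Pairs among the Arp2/3 genes stayed at 0.01 to 0.06, which in sparse counts is no finding. These values describe 4083, 3909 and 4724 cells that share a library each and a fixed depth. The cells include part of cluster 3, where Actb was at 1880 CPM and Tmsb4x at 2278 CPM over the libraries together. In the other microglia-like clusters these genes were at 6042 and 9683 CPM or more. Cluster 3 held 10.8% of kept control cells, 11.65% of hCD33M and 4.65% of hCD33m. Its part in the r of Actb and Tmsb4x, and in the lower r of hCD33m, was not tested.

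Over the 15 sums of library and depth band, which included the 95 cells under 1000 UMIs, the genes whose log2 CPM followed Actb most closely, of 3440 with at least 50 CPM in every library, were Spi1, a transcription factor of myeloid cells, Slc25a5, Snx17 and the ribosomal protein genes Rpl10 and Rpl37, all with r of 0.99. Of the other actin genes tested Cfl1 was closest, at rank 47 (r 0.96), followed by Tmsb4x at 76, Coro1a at 95, Arpc3 at 198, Arpc2 at 244, Actg1 at 327, Arpc1b at 582 and Pfn1 at 804 (r 0.63). The order rested on the shallowest band, where Pfn1 had 1 UMI in hCD33m. Over the 12 sums from 1000 UMIs up, r was between 0.97 and 0.99 for all 8 of these genes, with Cfl1 at rank 7 and Pfn1 at 364. Spi1 fell to rank 74, Rpl12 came first and Wasf2, another actin pathway gene, stood above Cfl1 at rank 5 (r 0.995). The sums share libraries and their order by depth, so many genes followed the same course.

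Fos, an immediate early gene, was detected after thinning in 333 of 4083 control cells, 1087 of 3909 hCD33M cells and 2082 of 4724 hCD33m cells. Actb was at 5867 CPM in control cells with a Fos UMI and 5957 in those without, at 5328 and 5502 in hCD33M, and at 6073 and 6247 in hCD33m. Cells with and without Fos thus differed in Actb by at most 0.05 on the log2 scale. For Actg1 the ratios were 0.03 in control, -0.05 in hCD33M and -0.04 in hCD33m, all with intervals that held 0. The lower Actg1 of the transgenic libraries was present in both sets of cells, at 449 and 535 CPM with Fos against 655 in control, and at 466 and 551 CPM without Fos against 639 in control.

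Cell classes were compared next, with the 3 libraries together, as a description, since clusters are drawn from the same cells. The classes differed in depth. Monocyte-like cells had a median of 9185 UMIs and border associated macrophage-like cells 8466.5. Relative to the median of kept cells in each library, the median cell of these classes stood at 2.02 and 1.84 times. The part of depth in the class ratios was not tested. Monocyte-like cells had higher levels than microglia-like cells for 9 of 10 genes, where 17.1% of 7229 genes were called higher, with a median log2 ratio of 1.07 against -0.37 for all genes compared. Capg was at 209 CPM (180 to 242) against 26.3 in microglia-like cells, 7.945-fold, and exceeded microglia-like cells 13.4-fold in control, 6.81-fold in hCD33M and 5.18-fold in hCD33m. Actg1 was at 1843 against 573 CPM, 3.215-fold, Coro1a at 1525 against 488 CPM, 3.125-fold, and Arpc1b at 1202 against 426 CPM, 2.82-fold. Actb, at 8704 against 6252 CPM, was 1.39-fold higher and under the limit. The UMIs of Actb per UMI of Actg1 were hence 4.72 (4.47 to 4.99) in monocyte-like cells and 10.9 in microglia-like cells. By library 9 genes passed in control, 10 in hCD33M and 8 in hCD33m. TMM scaling raised these ratios, that of Capg to 3.31 on the log2 scale and that of Actb to 0.80, and 10 of 10 genes then passed.

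The 84 monocyte-like cells came as 20 control, 23 hCD33M and 41 hCD33m cells, and their leading genes included the neutrophil genes S100a9, S100a8 and Retnlg. The 4 neutrophil markers in the data summed to 40950 CPM there in control, 12110 in hCD33M and 7350 in hCD33m, against at most 1.81 in microglia-like cells. In 3 cells, 1 per library, S100a8, S100a9 and Retnlg together had 10 or more UMIs. Without these cells Plac8, Fn1, S100a4 and S100a6 led the cluster and no neutrophil marker was among its 10 leading genes. The count then became 8 of 10, since Cfl1, at 1.51-fold with those cells, went under the limit, and Capg stood at a log2 ratio of 3.04. Microglia markers summed to 10710 CPM in hCD33M monocyte-like cells, 3321 in control and 2987 in hCD33m, and markers of dividing cells to 55.5, 339 and 8.82 CPM. In the same cells Capg was at 141 CPM in hCD33M (99.5 to 193), 351 in control (281 to 434) and 162 in hCD33m (122 to 210), so that control stood apart, and the part of these other markers in that difference was not tested.

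Of the 10 genes, 0 were called between border associated macrophage-like and microglia-like cells, where 7.19% of 6930 genes were. All 9 microglia markers were over 20 CPM in this class too, with a sum of 18140 against 27920 CPM in microglia-like cells, among them P2ry12 at 2250 against 3530 CPM, and their part in the small ratios was not tested. Tmsb4x was at 12124 against 10566 CPM, a log2 ratio of 0.20 (0.18 to 0.21), and Arpc3 at 313 against 266 CPM, 0.23 (0.13 to 0.33). Coro1a was lower, at 423 against 488 CPM, -0.21 (-0.29 to -0.12). Both actins were within 0.03 of microglia-like cells, with Actb at -0.03 (-0.05 to -0.00) and Actg1 at 0.02 (-0.05 to 0.10), and each changed sign in 2 of 5 other settings.

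The low-UMI unnamed cells had all 10 genes lower than microglia-like cells by 1.5-fold or more, where 28.8% of 7030 genes were called lower. Tmsb4x was at 3171 CPM, 0.300 of the microglia-like level, and Actb at 2201 CPM, 0.352 of it. Arpc1b was again the least affected, at 269 CPM or 0.632 of the microglia-like level, followed by Arpc3 at 0.503. The 9 microglia markers were all over 20 CPM in these cells. In the hCD33M library alone 9 of the 10 passed.

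**Figure D5:**
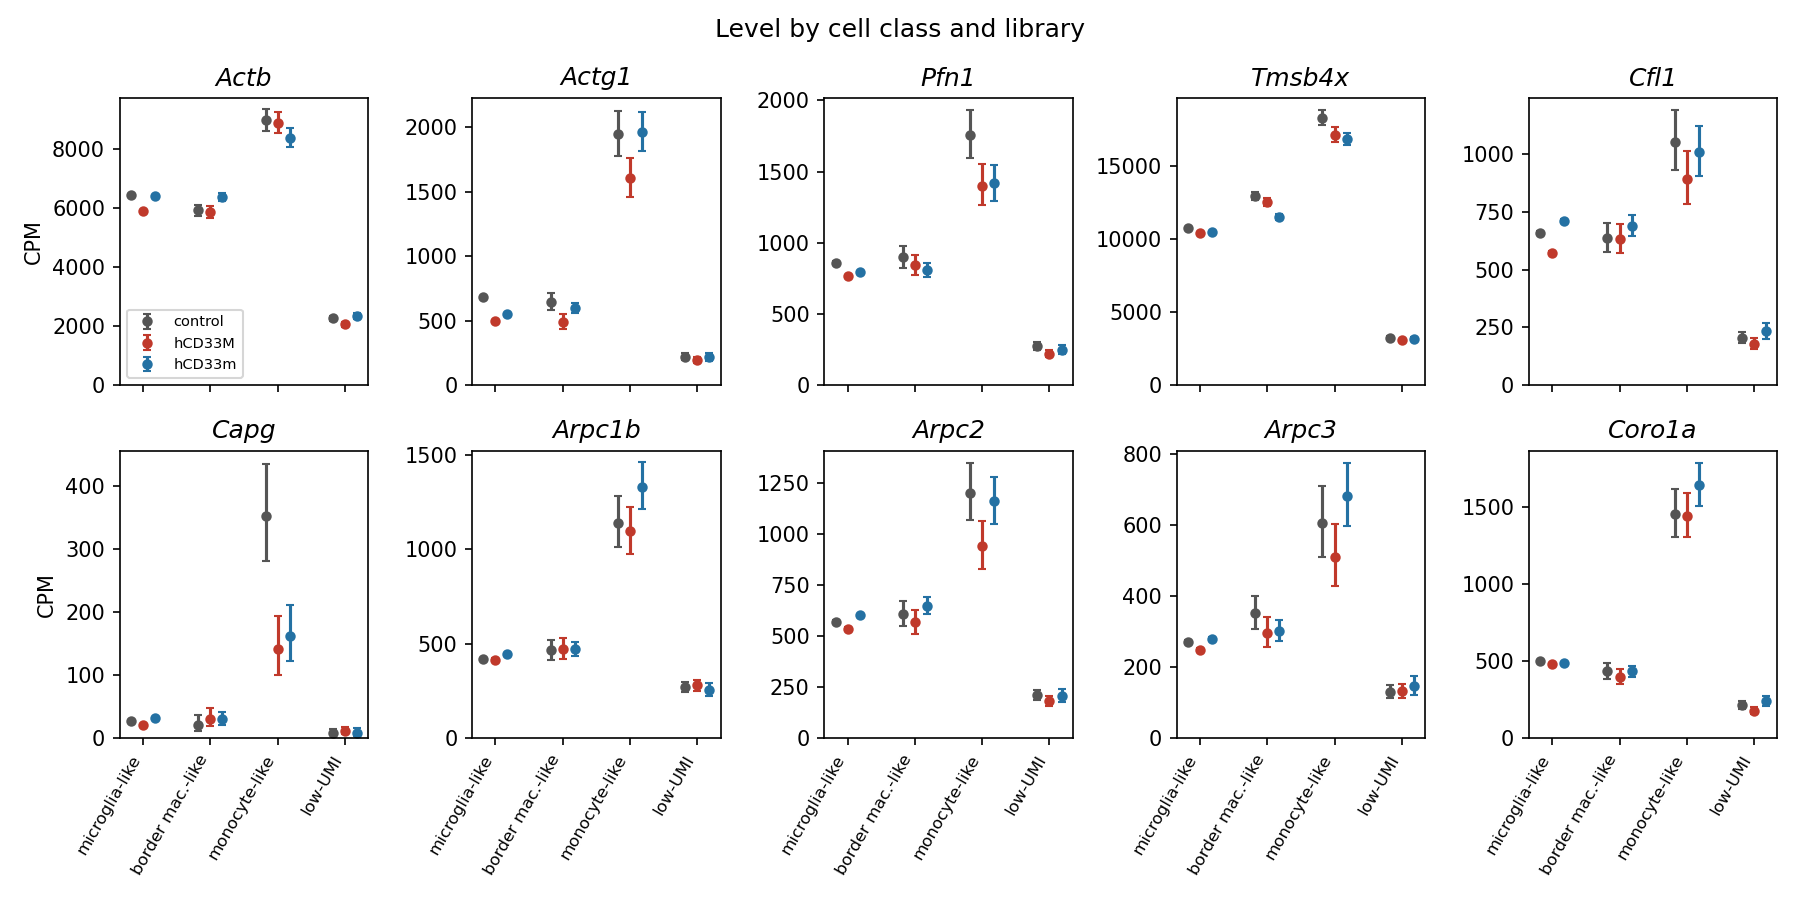
CPM of each gene by cell class and library, with exact 95% Poisson intervals and axes from 0. Over the libraries together monocyte-like cells are highest and low-UMI unnamed cells lowest for each gene, and border associated macrophage-like cells lie near microglia-like cells.

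The other genes of the actin pathway, 97 found of 101 listed, were read in the same cells. In hCD33m against control 1 of 80 genes with enough UMIs was higher and 0 lower by 1.5-fold, in hCD33M against control 0 of 79 in either direction, and in hCD33m against hCD33M 1 of 80 was higher and 0 lower. Of all genes compared 1.28%, 0.928% and 0.635% were called in these comparisons, so a single call among 80 genes is near that background. The medians were 0.01, -0.03 and 0.04 on the log2 scale. The gene higher in hCD33m than in control was Actn1, an actin crosslinker, at 33.25 against 22.05 CPM, a log2 ratio of 0.59 (0.45 to 0.74), with hCD33M at 23.1 CPM. The gene higher in hCD33m than in hCD33M was Coro2a, a coronin, at 22.5 against 13.6 CPM, 0.73 (0.55 to 0.91), with control at 17.5 CPM.

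Of the 13 nucleation promoting factors and formins none was called, and Fmnl1, a formin of blood cells, had the largest ratio in hCD33m against control, -0.37, at 79.0 against 102 CPM. Among the 6 other Arp2/3 subunits, none of which was called, Actr2 was at 362 CPM in control, 321 in hCD33M and 320.3 in hCD33m. Actr2 was thus lower than control in both transgenic libraries, whereas Arpc2 was lower in hCD33M and higher in hCD33m.

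Other genes that bind monomers or filament ends also stayed under 1.5-fold in these comparisons. Tmsb10, a thymosin, was at 125 CPM in control, 111 in hCD33M and 104 in hCD33m, and Dstn, which severs filaments like cofilin, at 146, 150.4 and 174 CPM. Capzb, a subunit of capping protein, was at 293 CPM in control, 281 in hCD33M and 319 in hCD33m. Tagln2, a filament binding protein, was at 48.0 CPM in control, 41.7 in hCD33M and 38.7 in hCD33m. Of the membrane linkers Msn, which encodes moesin, was at 360.3, 318 and 340 CPM in that order. Srf and its cofactors were under 20 CPM in microglia-like cells of every library and were not compared.

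Between depth bands the pathway genes went the way of the members, with 53 of 79 higher in the highest band and 1 lower, and a median of 0.82, where 34.4% of all genes were higher and 10.6% lower, with a median of 0.25. In monocyte-like against microglia-like cells 31 of 87 were higher and 16 lower, where 17.1% of all genes were higher and 37.6% lower, with 8 of 10 tropomyosins and myosins higher. In border associated macrophage-like cells 4 of 83 were higher and 2 lower, where 7.19% of all genes were called either way.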

How the data were processed

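Single-cell RNA sequencing libraries of sorted brain microglia were analysed, 1 for each of control, hCD33M and hCD33m. The authors aligned reads to mm10 with Cell Ranger and deposited UMI counts per gene and barcode. Their Seurat import dropped any gene seen in under 3 cells and any cell with 200 or fewer genes, so an absent gene may have been removed. The annotation release is not given in the sources used here. The labels' processing notes name Seurat and mm10. The second sequencing experiment was not analysed here.

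The filters of the study's methods on genes and mitochondrial share were applied. Clusters used scanpy 1.11.5 and leidenalg 0.10.2 (counts scaled to 10000, 2000 variable genes, 15 principal components, 20 neighbours, resolution 0.8), without sex-linked, mitochondrial, immediate early and actin pathway genes among the variable genes. A cluster was named from at least 3 listed markers over 20 CPM and at 50% or more of their highest cluster level. No name was given if another type had more markers among the 10 leading genes, or if the type itself had none there while the cells were shallow (median UMIs less than the library's divided by 3). The study states fewer cells per genotype after filtering than its stated filters left here. The SCCAF clustering of the study was not repeated. Doublets were limited by the gene maximum only, and no doublet caller was run.

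UMI sums were given as CPM with exact Poisson intervals, ratios with conditional binomial intervals and shares of cells with Clopper-Pearson intervals (scipy 1.17.1), all for counting error only. The call rule was tested on simulated data. The members, pathway lists and markers were chosen with earlier results of these data known. Named genes were all members, up to 3 of each pathway list with the largest ratio of hCD33m against control, the 5 genes most like Actb, Fos and class markers. The report describes a selection of these, and 1 pathway list is not reported here. TMM factors came from edgeR 4.0.16, and promoter windows from RefSeq on GRCm38.p6. Alternatives comprised 19 planned settings and 5 chosen after seeing the data.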

Additional observations from a re-analysis of the deposited data

How the results depend on the processing

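No paired analysis was possible because each genotype is 1 library and no result comes from a test across samples. Each setting was varied alone. The count of 1 for hCD33m against hCD33M, Capg, became 0 with cells thinned to 1600 UMIs, with all kept cells, with all barcodes, with at most 4000 genes or at least 2000 UMIs per cell, at resolution 0.4, with no gene left out of the variable genes and with calls at 2-fold, and also with cluster 8 added to the microglia-like cells, a setting chosen after seeing the data. Over its settings the log2 ratio of Capg ranged from 0.48 to 0.67, across a limit of 1.5-fold. The count of 0 for hCD33M against control became 2 with a lower fold limit, and the count of 9 for monocyte-like against microglia-like cells became 5 at 2-fold. The other 64 of 75 counts stayed within 1.5 times of their value in the report. Of the log2 ratios of single genes, 526 of 690 stayed within the counting interval of the reported ratio and 164 moved outside it, and no called ratio changed sign. The settings that changed only the fold limit or the minimum CPM could not move a ratio between libraries. They are counted in the 526 and in the 17 settings given for single ratios. The ratio of Actb in hCD33m against control, near 0, changed sign in 5 of 17 settings. Without the band under 1000 UMIs, left out after seeing the data, the correlation of Pfn1 with Actb moved from 0.63 to 0.97. Counts limit Capg most, with 605 to 1073 UMIs per library, and the spread between mice is unknown.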
